A study of Disanthus cercidifolius subsp. longipes with 9 samples.

Results

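The clusters described here are those whose KEGG pathway entry includes porphyrin and chlorophyll metabolism, the pathway that builds chlorophyll and heme and takes them apart. Of the 24385 transcript clusters in the table, 7168 carried a KEGG pathway entry, and 48 of them belonged to this pathway. A cluster is a set of assembled transcripts treated as 1 gene. By the enzyme name in the KEGG entry, 12 were synthesis enzymes (7 of the stem that all tetrapyrroles share and 5 of the chlorophyll branch) and 19 were breakdown enzymes. Another 14 acted on heme, siroheme or bilins, and 3 carried the name pheophorbidase. The 48 clusters fell under 18 KEGG enzymes and 26 cluster numbers, and 30 shared the number before the point with another of the 48.

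Leaves of Disanthus cercidifolius var. longipes, a deciduous shrub of the witch-hazel family, were sampled at 3 stages of growth and their mRNA was sequenced (RNA-seq), giving 3 libraries for each of F1, F2 and F3. F1 leaves were young and unfolded, F2 leaves had just reached full size, and F3 leaves were mature. All were untreated leaves from branch tips of nursery plants, and the sources do not say which tree gave which library, so the p-values measure the spread between libraries. The stages were sampled on different days, which the labels give as 20, 23 and 26 July and the methods as days in April, May and June, so leaf age and sampling day cannot be told apart.

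Chlorophyll is made in the chloroplast from glutamate. The stem of the pathway ends in protoporphyrin, which either receives magnesium and becomes chlorophyll or receives iron and becomes heme. Breakdown converts chlorophyll b to chlorophyll a, removes the magnesium and the phytol tail, and opens the ring. In leaves, synthesis genes are known to be active during greening, and several breakdown genes are known from senescence.

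Counts summed over the table ranged from 10353544 to 12253518 per library at F1, 9581197 to 14284676 at F2 and 8657054 to 10311846 at F3. These sums are not full library sizes. The table holds only clusters that were marked as changed in at least 1 comparison by its makers, so large shares of it are called in any comparison and enzymes of the pathway that it lacks are not analysed here. These include magnesium chelatase subunits D and I, chlorophyll synthase, chlorophyllide a oxygenase and red chlorophyll catabolite reductase. A cluster was called at an adjusted p under 0.05 (edgeR's quasi-likelihood test, adjusted over all 24385 clusters) with a fold change of 2 or more. Levels are given as FPKM (fragments divided by transcript length and by the size of the library), and changes as log2 fold changes from counts with their standard errors. Markers of photosynthetic leaf cells (66 clusters, RuBisCO small chain, RuBisCO activase and antenna proteins) summed to 73558 to 77386 FPKM at F1, 107957 to 109203 at F2 and 35441 to 37210 at F3. The higher sum at F2 came from the antenna proteins (36244 to 39129 FPKM at F1 and 71176 to 74504 at F2) and the activase. In FPKM the RuBisCO small chain was just lower at F2 (29978 to 31811) than at F1 (31842 to 38634). From counts, the median log2 change of its 7 clusters was 0.73. For the 3 clusters that made up nearly all of its sum it was -0.07, and none of these was called. The antenna, activase and small chain sums were all lowest at F3. In whole leaves, fewer cells of a type and less RNA per cell cannot be told apart.

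In 19 of the 48 clusters the KEGG name and the Swiss-Prot match, or the protein domain where there was no match, named different proteins. The 5 clusters named glutamate-1-semialdehyde aminomutase matched HCF173, which in Arabidopsis is needed to translate a photosystem II subunit. Of the 8 clusters named pheophorbide a oxygenase, 7 matched PTC52, a relative of that enzyme in the chloroplast envelope. A cluster listed as heme a synthase carried the domain of PsbX, a small subunit of photosystem II. The remaining 6 were the 3 pheophorbidase clusters, which matched methylesterases, 2 clusters named sirohydrochlorin ferrochelatase and 1 named phytochromobilin synthase. Counts are therefore given for all clusters of a class and for those whose names agree, 7 for synthesis and 12 for breakdown. The names were compared after the table had been seen.

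**Figure D1:**
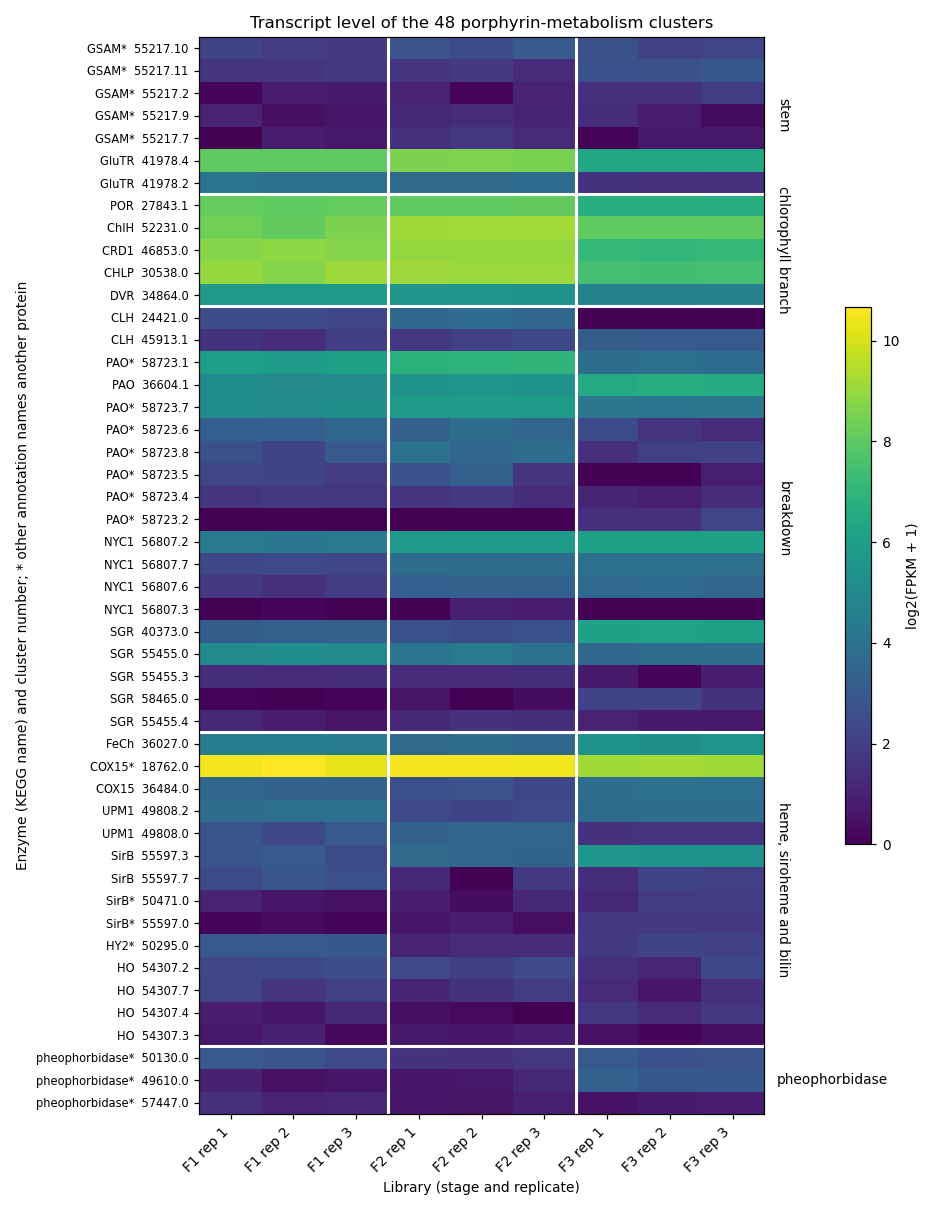
Levels of the 48 clusters, 1 row each, in the 9 libraries (columns), as log2(FPKM + 1) by colour, ordered by role. An asterisk marks the 19 clusters whose KEGG name and other annotation differ. The chlorophyll branch and 1 cluster of glutamyl-tRNA reductase (GluTR) are bright at F1 and F2 and darker at F3, and the brightest row is the cluster with the PsbX domain.

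From F1 to F2, 7 of the 48 clusters rose and 4 fell, against 22% and 18.8% of all clusters in the table. With DESeq2 the split was 6 to 8, and with RLE scaling, DESeq2's size factors used in edgeR, it was 6 to 7. From F2 to F3, 14 rose and 18 fell, against 29.5% and 35.8% of all clusters. From F1 to F3, 13 rose and 21 fell, against 35% and 34.7%. The 3 comparisons share libraries. The median log2 change of the 48 clusters was 0.26 from F1 to F2, -0.69 from F2 to F3 and -0.72 from F1 to F3, beside 0.17, -0.37 and 0.00 over all clusters. Under RLE scaling the medians over all clusters were 0.00, -0.19 and 0.00, a shift that applies to every value below.

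When the counts of each KEGG enzyme were summed first, 2 of the 18 enzymes rose and 2 fell from F1 to F2 (22% and 18.9% of all rows tested). From F2 to F3, 4 rose and 7 fell (29.4% and 35.9%), and from F1 to F3, 2 rose and 7 fell (34.9% and 34.7%). All 7 that fell from F2 to F3 were synthesis enzymes apart from heme a synthase, whose total came almost whole from the cluster with the PsbX domain.

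Synthesis enzymes were abundant at F1 and F2 and lower at F3. All 7 synthesis clusters with agreeing names fell from F2 to F3, by a median log2 change of -1.79. All 7 were also lower at F3 than at F1, and 6 of them were called (34.7% of all clusters fell). From F1 to F2 none of the 7 was called by edgeR in either direction. All 7 changes were under 2-fold (log2 -0.27 to 0.86), though some had an adjusted p under 0.05. At an unadjusted p under 0.05, 4 were higher and 2 lower. DESeq2 and limma called 0 of the 7 in that comparison as well. Over all 12 synthesis clusters, 1 rose and 0 fell from F1 to F2 (22% and 18.8% over all clusters, 2 lower at an unadjusted p under 0.05, 0 called by DESeq2). From F2 to F3, 1 rose and 7 fell (29.5% and 35.8%), and between F1 and F3 the numbers were 1 and 6 (35% and 34.7%). Every synthesis cluster that rose was a match to HCF173.

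Glutamyl-tRNA reductase (GluTR) makes the committed step of the stem, at which the whole pathway is regulated. Its main cluster, Cluster-41978.4, stood at 266, 268 and 259 FPKM at F1, 383, 388 and 371 at F2, and 82.7, 80.3 and 81.9 at F3. The groups did not overlap, with F2 highest and F3 lowest. The increase from F1 to F2 stayed under 2-fold (0.58 ± 0.044, adjusted p = 7.74e-06). The fall to F3 was 5.17-fold (-2.37 ± 0.046, adjusted p = 1.17e-09). The minor cluster of the same number, Cluster-41978.2, measured 16.3, 13.9 and 14.1 FPKM at F1, 11.9, 11.9 and 12.2 at F2, and 1.96, 1.9 and 1.73 at F3. It was highest at F1 and fell 7.19-fold from F2 to F3 (-2.85 ± 0.084, adjusted p = 1e-08). The summed counts of both clusters changed by -2.40 from F2 to F3 (log2, adjusted p = 9.73e-10).

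Magnesium chelatase subunit H (ChlH), which holds the porphyrin while magnesium is inserted, was likewise highest at F2. Cluster-52231.0 stood at 339, 276 and 374 FPKM at F1, 572, 580.0 and 589 at F2, and 271, 258 and 266 at F3. All F2 libraries lay far above the others, and the F1 and F3 ranges did not overlap but lay close to each other. From F1 to F2 the change was below the 2-fold threshold (0.86 ± 0.077, adjusted p = 2.45e-05), and from F2 to F3 it fell 2.45-fold (-1.29 ± 0.078, adjusted p = 8.29e-07). It was the only 1 of the 7 that was not called from F1 to F3 (-0.43 ± 0.077, adjusted p = 0.000825).

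The cyclase CRD1, which closes the isocyclic ring of chlorophyll, had in Cluster-46853.0 levels of 428, 458 and 431 FPKM at F1, 509, 510.0 and 506 at F2, and 139, 134 and 140.3 at F3. F1 and F2 differed little, and all F3 libraries were lower by more than 3-fold. Its fall from F2 to F3 was the steepest of the chlorophyll branch (-2.05 ± 0.05, adjusted p = 3.83e-09), and from F1 to F3 it fell by 1.80 on the log2 scale. Divinyl reductase (DVR), which reduces a vinyl side chain, was the least abundant enzyme of the branch. Its Cluster-34864.0 measured 52.2, 55.7 and 56.6 FPKM at F1, 46.3, 47.2 and 44.3 at F2, and 24.9, 23.9 and 25.4 at F3. The levels stepped down at each stage with no overlap, but the fall from F2 to F3 lay at the threshold (-1.06 ± 0.061, adjusted p = 6.11e-07) and was under 2-fold with DESeq2, RLE scaling, library sizes implied by FPKM, limma and the 2 stages alone (-0.87 to -0.91). From F1 to F3 it fell by 1.27 on the log2 scale (adjusted p = 1.44e-07).

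Protochlorophyllide reductase (POR) uses light to reduce the direct precursor of chlorophyllide. In Cluster-27843.1 the levels were 283, 266 and 284 FPKM at F1, 269, 267 and 277 at F2, and 102, 105 and 99.6 at F3. F1 and F2 overlapped, and F3 lay 3.03-fold below F2 (-1.60 ± 0.053, adjusted p = 1.9e-08). Geranylgeranyl reductase (CHLP) supplies the phytol tail, which tocopherol also carries. Cluster-30538.0 stood at 513, 430.1 and 554 FPKM at F1, 553, 543 and 533 at F2, and 179, 172 and 176 at F3, and again F1 and F2 overlapped while all F3 libraries were lower (-1.79 ± 0.068, adjusted p = 3.91e-08).

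**Figure D2:**
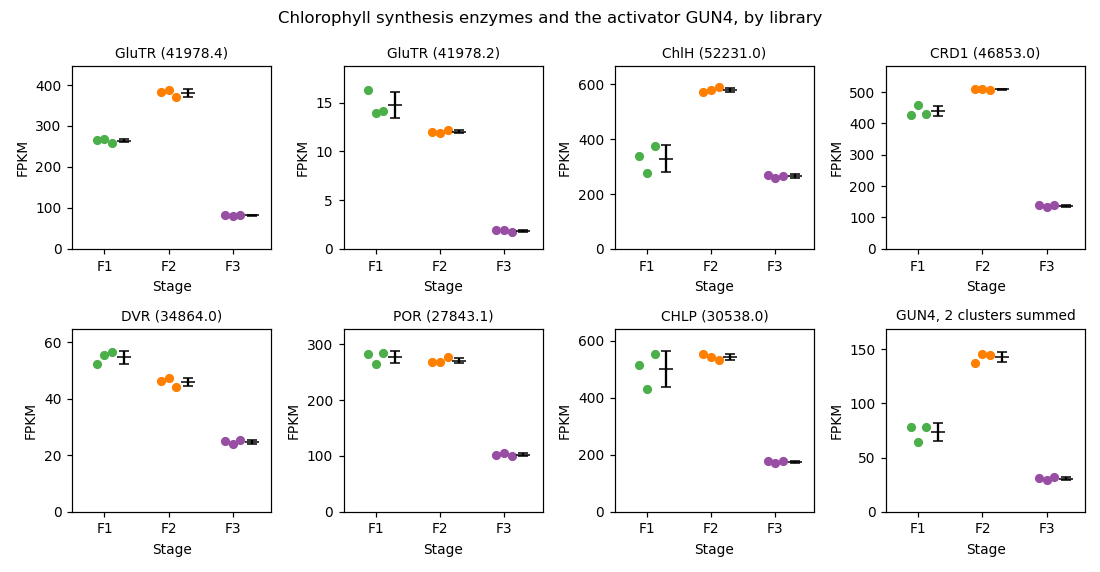
FPKM of the 7 synthesis clusters with agreeing names and of the 2 summed GUN4 clusters, by stage. Points are libraries (3 per stage), and the black mark and bar beside them are the mean and SD. In every panel the F3 libraries lie below those of F2, and ChlH, the main GluTR cluster and GUN4 are highest at F2.

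The 5 clusters that matched HCF173 were low, between 0 and 7.28 FPKM in every library. The most abundant, Cluster-55217.10, measured 3.6, 2.61 and 2.43 FPKM at F1, 5.58, 4.48 and 7.28 at F2, and 5.34, 3.17 and 3.7 at F3. F1 and F2 did not overlap, and the difference was called (1.05 ± 0.27, adjusted p = 0.00952), but not without F1 replicate 3 (0.93) or F2 replicate 3 (0.85), nor with DESeq2, RLE scaling, library sizes implied by FPKM or limma (0.80 to 0.99). Cluster-55217.11 stood at 2.12, 2.01 and 2.52 FPKM at F1, 2.01, 2.5 and 1.51 at F2, and 5.43, 5.31 and 6.58 at F3 and rose from F2 to F3 (1.35 ± 0.21, adjusted p = 0.000457).

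Regulators that act on the synthesis enzymes were counted from name patterns. GUN4 binds porphyrins and activates magnesium chelatase. Its 2 clusters summed to 64.2 to 78.4 FPKM at F1, 137 to 146 at F2 and 29.1 to 32.1 at F3, so that, like ChlH, F2 was highest and no stages overlapped. Of the 2, Cluster-42731.0 measured 61.3, 52.2 and 61.2 FPKM at F1, 68.6, 85.3 and 74.4 at F2, and 0 in all libraries at F3. Cluster-42731.1 stood at 16.6, 12.1 and 17.2 FPKM at F1, 68.6, 60.6 and 70.3 at F2, and 30.8, 29.1 and 32.1 at F3, rose from F1 to F2 (2.17 ± 0.12, adjusted p = 1.07e-06) and fell to F3 (-1.28 ± 0.11, adjusted p = 1.07e-05). Of 5 clusters of CPP1, a chaperone-like partner of POR in Arabidopsis, 3 rose from F2 to F3 and 0 fell (edgeR, 29.5% and 35.8% over all clusters), while POR fell. The CPP1 clusters were low at F2, with a sum of 6.54 to 7.91 FPKM, and summed to 28.2 to 28.4 at F3. The most abundant of them, Cluster-44013.6, stood at 6.83, 5.84 and 6.01 FPKM at F1, 2.97, 4.48 and 3.03 at F2, and 13.1, 8.16 and 9 at F3. It rose by 1.36 from F2 to F3 (log2, adjusted p = 0.000559). GUN1, known in Arabidopsis for signalling from the chloroplast to the nucleus, was low in Cluster-39231.0, with 0.57, 0.8 and 0.83 FPKM at F1, 0.39, 1.43 and 0.67 at F2, and 3.01, 3.22 and 3.2 at F3. It rose from F2 to F3 (1.49 ± 0.50, adjusted p = 0.0246), though not without F2 replicate 3 (1.38) or any 1 of the F3 replicates (1.43 to 1.48).

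Transcription factors known from Arabidopsis to act on greening did not move in 1 direction. Of 21 clusters, 6 rose and 5 fell from F1 to F2 (22% and 18.8% over all clusters), 5 rose and 11 fell from F2 to F3 (29.5% and 35.8%), and between F1 and F3 the numbers were 8 and 6 (35% and 34.7%). The 4 clusters of HY5 and its relative HYH, which promote light-induced genes, all fell from F1 to F2. HYH, the most abundant (Cluster-56757.0), had 67.7, 82.3 and 67.9 FPKM at F1, 32.1, 33.1 and 31.8 at F2, and 61.8, 64 and 55.5 at F3. It was lowest at F2 (-1.12 ± 0.12, adjusted p = 6.9e-05), and the call was lost without F1 replicate 2 (-0.99). Of 5 clusters of GATA21 and GATA22, which promote greening, 3 rose and 1 fell from F1 to F2. The 1 that fell was the most abundant, Cluster-22801.6, with 26, 30.1 and 29.6 FPKM at F1, 4.29, 5.56 and 3.67 at F2, and 7.9, 8.9 and 8.4 at F3 (-2.62 ± 0.16, adjusted p = 2.1e-06). PIF1, which holds back chlorophyll synthesis in the dark, measured 10.8, 11.1 and 12.6 FPKM at F1, 16.2, 16.8 and 15.6 at F2, and 8.98, 8.65 and 7.57 at F3 in Cluster-42332.2. This cluster fell from F2 to F3 (-1.11 ± 0.14, adjusted p = 0.000115), a change under 2-fold with DESeq2, RLE scaling, library sizes implied by FPKM, limma or the 2 stages alone (-0.87 to -0.96). Of the 5 clusters of PIF1 and its relative PIF3, 2 rose and 3 fell from F2 to F3. The PIF3 match was among those that rose, with 3.73 to 7.92 FPKM at F2 and 15.5 to 22.8 at F3. A FAR1 cluster, Cluster-43498.0, stood at 7.28, 8.65 and 7.13 FPKM at F1, 9.15, 7.57 and 8.82 at F2, and 4.56, 4.79 and 4.08 at F3 and fell from F2 to F3 (-1.38 ± 0.12, adjusted p = 8.35e-06), but not with limma (-0.79 and -0.91).

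Breakdown enzymes did not all move together, and time courses differed between some enzymes and between clusters of the same enzyme. Over all 19 breakdown clusters, 5 rose and 0 fell from F1 to F2 (22% and 18.8% over all clusters, edgeR, 2 lower at an unadjusted p under 0.05, 1 called lower by DESeq2), 4 rose and 9 fell from F2 to F3 (29.5% and 35.8%), with 8 and 9 from F1 to F3 (35% and 34.7%). Among the 12 with agreeing names, 4 rose and 0 fell from F1 to F2 (2 lower at an unadjusted p under 0.05, 1 called by DESeq2), 3 rose and 4 fell from F2 to F3, with 7 and 3 from F1 to F3. With the 3 pheophorbidase clusters added to the 19, the counts were 5 and 1, 6 and 9, and 9 and 10. Of the 12 clusters with agreeing names, 7 had their highest mean at F3, 3 at F2 and 2 at F1.

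Chlorophyll b reductase (NYC1), which starts the conversion of chlorophyll b to chlorophyll a, rose between F1 and F2 and stayed at the higher level. The most abundant of its 4 clusters, Cluster-56807.2, measured 19.4, 17.4 and 20.7 FPKM at F1, 54.1, 55.5 and 57.8 at F2, and 65.5, 65.5 and 65.4 at F3. F1 lay below both other stages without overlap, by 3-fold from F2 (1.59 ± 0.061, adjusted p = 1.48e-07). F3 lay slightly above F2, and that change was not called (adjusted p = 0.319). Cluster-56807.7 had 3.99, 4.16 and 3.87 FPKM at F1, 12.6, 13.3 and 12.8 at F2, and 14.5, 14.5 and 14.2 at F3, and Cluster-56807.6 had 2.45, 1.9 and 2.74 FPKM at F1, 8.14, 9.2 and 8.82 at F2, and 11.6, 12.1 and 10.6 at F3. Both rose from F1 to F2, by 1.72 and 1.93 on the log2 scale. Cluster-56807.3 stayed at or below 0.92 FPKM in every library. The 4 clusters together rose by 1.70 ± 0.055 from F1 to F2 (log2, adjusted p = 6.73e-08).

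Magnesium dechelatase, called STAY-GREEN, takes the magnesium out of chlorophyll a, and its 5 clusters split by their Swiss-Prot match. The SGR cluster, Cluster-40373.0, stood at 7.79, 8.58 and 8.31 FPKM at F1, 5.43, 4.46 and 5.41 at F2, and 67.8, 72.5 and 65.2 at F3. It was low at F1 and F2 and 12-fold higher at F3 than at F2 (3.59 ± 0.12, adjusted p = 1.62e-08), the largest rise among members with at least 10 FPKM in a stage. A second SGR match, Cluster-58465.0, was also highest at F3 but low, with 0.09, 0 and 0.15 FPKM at F1, 0.49, 0 and 0.29 at F2, and 3.37, 3.5 and 1.94 at F3 (3.32 ± 0.89, adjusted p = 0.00866). The STAY-GREEN-like relative SGRL, which in Arabidopsis acts on chlorophyllide, ran the other way. Its main cluster, Cluster-55455.0, measured 33.1, 36.6 and 32.4 FPKM at F1, 16.6, 19.4 and 15.4 at F2, and 11.1, 12.8 and 13.5 at F3. It was highest at F1 without overlap and 2.98-fold lower at F3 (-1.57 ± 0.13, adjusted p = 4.59e-06). From F1 to F2 its change was -0.95, which was past 2-fold with DESeq2 (-1.12) and without F2 replicate 2 (-1.04). The other SGRL clusters, Cluster-55455.3 and Cluster-55455.4, stayed below 2 FPKM.

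Pheophorbide a oxygenase (PAO) opens the ring, the step after which the green colour is gone. The 1 cluster with agreeing names, Cluster-36604.1, stood at 35.3, 31.8 and 32.1 FPKM at F1, 43.3, 45.8 and 42.6 at F2, and 90.5, 98.4 and 92.8 at F3. The stages did not overlap and stepped upward, with 2.6-fold between F1 and F3 (1.38 ± 0.069, adjusted p = 1.87e-07). From F2 to F3 the change was 0.94, just under 2-fold, and it was past 2-fold with DESeq2 (1.11), RLE scaling (1.11) and limma (1.08). Of the 7 PTC52 clusters listed under the same KEGG name, 5 fell from F2 to F3, Cluster-58723.2 rose and Cluster-58723.4 was not called (-0.96). In barley and Arabidopsis PTC52 is known as a part of the machinery that imports protochlorophyllide reductase. Their sum was 120.0, 108 and 128 FPKM at F1, 202, 210.1 and 210.4 at F2, and 40.2, 39.5 and 41.2 at F3. F2 was highest and F3 lowest with no overlap, and the summed counts fell 5.7-fold from F2 to F3 (-2.51 ± 0.055, adjusted p = 2.17e-09).

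The largest PTC52 cluster, Cluster-58723.1, stood at 65, 57.2 and 65.6 FPKM at F1, 116, 118 and 126 at F2, and 13.4, 14.4 and 12.4 at F3. It fell 10-fold from F2 to F3 (-3.33 ± 0.084, adjusted p = 4.28e-09), while its change from F1 to F2 lay at the threshold (0.98 ± 0.077, adjusted p = 1.02e-05) and was called without F1 replicate 1, F1 replicate 3 or F2 replicate 1 (1.01 each). Cluster-58723.7 measured 35.8, 33.6 and 38.9 FPKM at F1, 54.6, 56.7 and 57.5 at F2, and 17.8, 17.3 and 18.1 at F3 and also fell (-1.83 ± 0.058, adjusted p = 1.41e-08). A minor cluster, Cluster-58723.8, had 5.23, 3.39 and 6.97 FPKM at F1, 15.2, 10.6 and 13.2 at F2, and 1.76, 3.03 and 3.24 at F3. It rose from F1 to F2 (1.38 ± 0.30, adjusted p = 0.00448) and fell to F3 by 2.45 on the log2 scale. Cluster-58723.2, which rose, had 0 counts in every F1 and F2 library and 1.81, 1.79 and 3.72 FPKM at F3, at least 33.3-fold higher than F2 against a floor of 3 counts per library. Summing PAO and PTC52 under their KEGG name hid the opposite directions, since that total changed by -0.16 from F1 to F3 (log2, adjusted p = 0.0209).

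Chlorophyllase, which cuts off the phytol tail, was low, and its 2 clusters differed. Cluster-24421.0, a match to CLH1, measured 4.56, 4.35 and 3.86 FPKM at F1, 10.8, 12.4 and 10.6 at F2, and 0 in all libraries at F3. It rose from F1 to F2 (1.45 ± 0.19, adjusted p = 0.000659) and had no count at F3, which is at least 102-fold lower than F2 and at least 37.5-fold lower than F1 against a floor of 3 counts per library. Cluster-45913.1, a match to CLH2, had 1.92, 1.54 and 2.89 FPKM at F1, 2.4, 3.04 and 3.93 at F2, and 7.98, 7.48 and 6.93 at F3. F3 was highest (1.70 ± 0.25, adjusted p = 0.000224 from F1 to F3), and the call from F2 to F3 (1.09) was lost without F2 replicate 1 (0.94). Over both clusters the summed counts lay at the threshold from F1 to F2 (1.02 ± 0.13, adjusted p = 0.000243), and the change was under 2-fold with DESeq2 and RLE scaling (0.85 each), library sizes implied by FPKM (0.96), the 2 stages alone (0.97) and without F1 replicate 2, F2 replicate 2, F2 replicate 3, F3 replicate 1 or F3 replicate 3 (0.94 to 0.99).

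**Figure D3:**
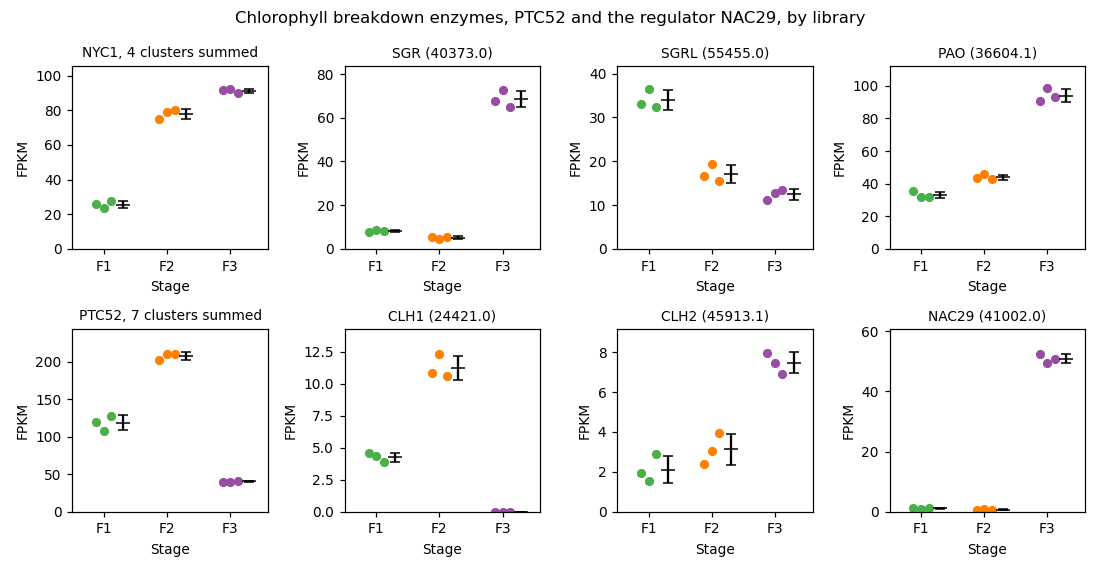
FPKM of breakdown enzymes, the PTC52 clusters listed under pheophorbide a oxygenase, and the regulator NAC29, by stage. Points are libraries (3 per stage), and the black mark and bar beside them are the mean and SD. NYC1 is higher from F2 on, SGR and NAC29 are high only at F3 among the stages sampled, SGRL is highest at F1, and PTC52 and CLH1 are highest at F2 and lowest at F3.

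The 3 pheophorbidase clusters matched methylesterases of Arabidopsis. The most abundant, Cluster-50130.0, stood at 6.87, 6.04 and 4.19 FPKM at F1, 1.92, 1.77 and 2.23 at F2, and 7.05, 5.48 and 5.64 at F3. It was lowest at F2 without overlap (-1.49 ± 0.25, adjusted p = 0.00106 from F1 to F2) and rose again to F3 (1.45 ± 0.25, adjusted p = 0.000751). Cluster-49610.0 had 1, 0.39 and 0.57 FPKM at F1, 0.52, 0.61 and 1.28 at F2, and 8.55, 6.75 and 6.36 at F3 and rose only after F2 (3.13 ± 0.37, adjusted p = 7.73e-05), while Cluster-57447.0 stayed below 2 FPKM.

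Some clusters with a pathway enzyme as their Swiss-Prot match carried no entry for this KEGG pathway and are not among the 48. They were looked up after the table had been seen. Pheophytinase, which removes the tail from magnesium-free chlorophyll, had 2 such matches, and ChlH had 1. Cluster-50981.0 measured 28.7, 28.6 and 27.4 FPKM at F1, 55.8, 53.3 and 55.9 at F2, and 189, 190.4 and 183 at F3. It stepped upward with no overlap and rose 3.02-fold from F2 to F3 (1.60 ± 0.058, adjusted p = 3.18e-08). From F1 to F2 it was at the threshold (1.01 ± 0.058, adjusted p = 1.57e-06), with 0.83 by DESeq2 and RLE scaling, 0.94 to 0.96 by library sizes implied by FPKM, limma and the 2 stages alone, and 0.96 to 1.00 without F1 replicate 3, F2 replicate 1, F2 replicate 3, F3 replicate 1 or F3 replicate 3. Cluster-54829.0 had 70.2, 72.7 and 69.6 FPKM at F1, 56.9, 57.4 and 55.9 at F2, and 181, 185 and 178 at F3 and rose from F2 to F3 as well (1.51 ± 0.058, adjusted p = 4.31e-08). The ChlH match, Cluster-9170.8, was low and ran against the abundant ChlH cluster, with 2.45, 1.91 and 1.94 FPKM at F1, 1.57, 2.3 and 3.05 at F2, and 3.65, 5.12 and 6.85 at F3. Its rise from F2 to F3 (1.04 ± 0.36, adjusted p = 0.0265) was not called with limma on log2(FPKM + 1) (0.90), among clusters of at least 1 FPKM (0.99) or without F2 replicate 1, F2 replicate 2, F3 replicate 2 or F3 replicate 3 (0.77 to 1.04).

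Among 8 clusters of breakdown regulators and partners, 1 rose and 0 fell from F1 to F2 (edgeR, 22% and 18.8% over all clusters), 4 rose and 3 fell from F2 to F3 (29.5% and 35.8%), with 2 and 2 from F1 to F3 (35% and 34.7%). NAC29 (NAP), a NAC factor known from Arabidopsis leaf senescence, had in Cluster-41002.0 levels of 1.23, 0.94 and 1.12 FPKM at F1, 0.59, 0.88 and 0.63 at F2, and 52.5, 49.4 and 50.6 at F3. It was near 1 FPKM at F1 and F2 and rose 64.7-fold to F3 (6.02 ± 0.15, adjusted p = 3.96e-09). EIN3, the main transcription factor of ethylene signalling, stood at 61.5, 58.5 and 68.3 FPKM at F1, 63.6, 59.3 and 63.9 at F2, and 194, 195 and 197 at F3 in Cluster-34557.0. F1 and F2 overlapped, and F3 was 2.79-fold higher than F2 (1.48 ± 0.059, adjusted p = 5.45e-08). The 2 other factors, matches to ABI5-like 5 and ABI5-like 7 of abscisic acid signalling, went apart. Both clusters of ABI5-like 5 rose from F2 to F3, with sums of 4.63 to 7.92 FPKM at F2 and 15.9 to 17.9 at F3. The ABI5-like 7 match, Cluster-51705.7, had 17.1, 16.4 and 18.4 FPKM at F1, 14.4, 14.7 and 16 at F2, and 6.5, 5.46 and 5.67 at F3. It fell from F2 to F3 (-1.58 ± 0.081, adjusted p = 2.76e-07). Phytol kinase, which recycles the tail, measured 20.6, 19.7 and 20.4 FPKM at F1, 17.9, 15.7 and 16 at F2, and 6.55, 7.28 and 6.5 at F3 in Cluster-42191.0 and fell from F2 to F3 (-1.46 ± 0.11, adjusted p = 3.32e-06). TIC55, a relative of PAO in the envelope, was low (Cluster-54444.0, 2.75, 2.39 and 2.37 FPKM at F1, 4.87, 4.36 and 5.28 at F2, and 6.8, 4.32 and 4.81 at F3). A further PTC52 match without the pathway entry, Cluster-49032.1, measured 7.75, 7.34 and 8.5 FPKM at F1, 12.1, 12 and 12.1 at F2, and 5.3, 4.86 and 4.78 at F3 and fell from F2 to F3 (-1.47 ± 0.15, adjusted p = 3.58e-05). Markers of senescing cells (8 clusters of senescence-associated proteases and metacaspases) summed to 82.1 to 96.5 FPKM at F1, 124 to 132 at F2 and 168 to 186 at F3. The sum followed the 3 SAG39 matches (8.64 to 13.7, 51.6 to 54.7 and 123 to 142 FPKM), while 2 of the 8 clusters rose and 2 fell from F2 to F3. From F1 to F3, 3 rose and 3 fell. The metacaspase matches were highest at F1. MCA4 had 46 to 52 FPKM at F1 and 21 to 22 at F3, and the 2 MCA1 matches summed to 22 to 29 and 9.2 to 11. The 2 SAG12 matches were highest at F2 (31.9 to 36.5 FPKM, against 3.4 to 3.86 at F1 and 11.4 to 14.5 at F3). Their part in the rise of SGR and PAO was not tested.

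Heme, siroheme and bilin enzymes differed from each other. Of the 14 clusters, 1 rose and 3 fell from F1 to F2 (22% and 18.8% over all clusters). From F2 to F3, 7 rose and 2 fell (29.5% and 35.8%), with 3 and 5 from F1 to F3 (35% and 34.7%). Among the 10 with agreeing names, 0 rose and 2 fell from F1 to F2 (edgeR, 2 higher at an unadjusted p under 0.05, 0 called higher by DESeq2), and 5 rose and 1 fell from F2 to F3. Summed by enzyme, ferrochelatase and SirB rose from F2 to F3, heme a synthase fell, and the other 3 were not called. Ferrochelatase (FeCh) inserts iron at the branch point where chelatase inserts magnesium. Cluster-36027.0 measured 22.2, 21.7 and 20.5 FPKM at F1, 11.9, 13.1 and 11.3 at F2, and 41.9, 38.4 and 44.5 at F3. F2 was lowest and F3 highest without overlap, the reverse of ChlH, with a 3.07-fold rise from F2 to F3 (1.62 ± 0.077, adjusted p = 1.71e-07). Heme a synthase (COX15), which makes the heme of mitochondrial cytochrome oxidase, had in Cluster-36484.0 levels of 10.5, 9.12 and 9.2 FPKM at F1, 5.16, 5.55 and 3.98 at F2, and 13.3, 14.6 and 14 at F3, with the same order of stages (1.34 ± 0.14, adjusted p = 3.95e-05 from F2 to F3). The cluster with the PsbX domain under the same KEGG name, Cluster-18762.0, was the most abundant of all 48. It stood at 1437, 1633 and 1284 FPKM at F1, 1435, 1415 and 1389.6 at F2, and 575, 607 and 575 at F3 and fell from F2 to F3 (-1.44 ± 0.10, adjusted p = 2.43e-06), as the synthesis enzymes did.

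Siroheme is the cofactor of nitrite and sulfite reductases. Its iron-inserting enzyme SirB had 2 clusters with agreeing names. Cluster-55597.3 stood at 5.93, 6.99 and 4.55 FPKM at F1, 11.8, 10.3 and 9.81 at F2, and 48.3, 43.5 and 43.5 at F3. The stages did not overlap, and F3 lay 3.79-fold above F2 (1.92 ± 0.15, adjusted p = 5.4e-06). Its increase from F1 to F2 was not called (0.90). The other, Cluster-55597.7, measured 4.23, 6.23 and 5.01 FPKM at F1, 1.27, 0.05 and 2.55 at F2, and 1.62, 3.41 and 3.04 at F3 and was not called in any comparison by edgeR (-2.00 from F1 to F2, adjusted p = 0.0797), though from F1 to F2 it was with DESeq2 (-2.15), with limma (-1.58 and -2.67) and without F2 replicate 2 (-1.41) or F2 replicate 3 (-2.96). The counts of both together changed by 0.02 from F1 to F2 and rose by 1.82 from F2 to F3 (log2, adjusted p = 6.59e-06). Uroporphyrinogen III methyltransferase (UPM1), which directs the stem toward siroheme, had 2 clusters of the same number that ran in opposite directions. Cluster-49808.2 measured 13, 14.2 and 13.7 FPKM at F1, 4.16, 3.44 and 4.12 at F2, and 12.5, 13 and 13.5 at F3. It was low at F2 only (-1.69 ± 0.13, adjusted p = 8.5e-06 from F1 to F2 and 1.45 ± 0.13, adjusted p = 1.07e-05 from F2 to F3). Cluster-49808.0 had 5.97, 4 and 6.98 FPKM at F1, 9.27, 10.6 and 10.2 at F2, and 1.85, 2.04 and 2.05 at F3 and was highest at F2 (-2.51 ± 0.18, adjusted p = 2.74e-06 from F2 to F3). The counts of the 2 together changed by -0.70 from F2 to F3 (log2), while the sum of their FPKM was 13.4, 14 and 14.3 at F2 and 14.3, 15 and 15.6 at F3, so the total went in different directions in counts and in FPKM.

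Phytochromobilin synthase, named by KEGG for Cluster-50295.0, makes the chromophore of phytochrome. That cluster had no Swiss-Prot match and the domain of another family, and it stood at 6.88, 7.03 and 6.56 FPKM at F1, 1.12, 1.5 and 1.56 at F2, and 2.55, 3.52 and 3.28 at F3, highest at F1 (-2.27 ± 0.21, adjusted p = 2.88e-05 from F1 to F2). Heme oxygenase opens heme to biliverdin, and its 4 clusters, all below 5 FPKM in every library, matched a protein that Swiss-Prot names as a probable inactive heme oxygenase. The most abundant, Cluster-54307.2, had 3.9, 3.96 and 4.82 FPKM at F1, 4.11, 2.92 and 4.06 at F2, and 1.83, 1.19 and 3.93 at F3. Its libraries overlapped between all stages, and the call from F1 to F3 (-1.01 ± 0.38, adjusted p = 0.0354) was lost in 5 fits that each left out 1 library, those without F1 replicates 1, 2 or 3 or F3 replicates 1 or 2 (-0.71 to -1.09).

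**Figure D4:**
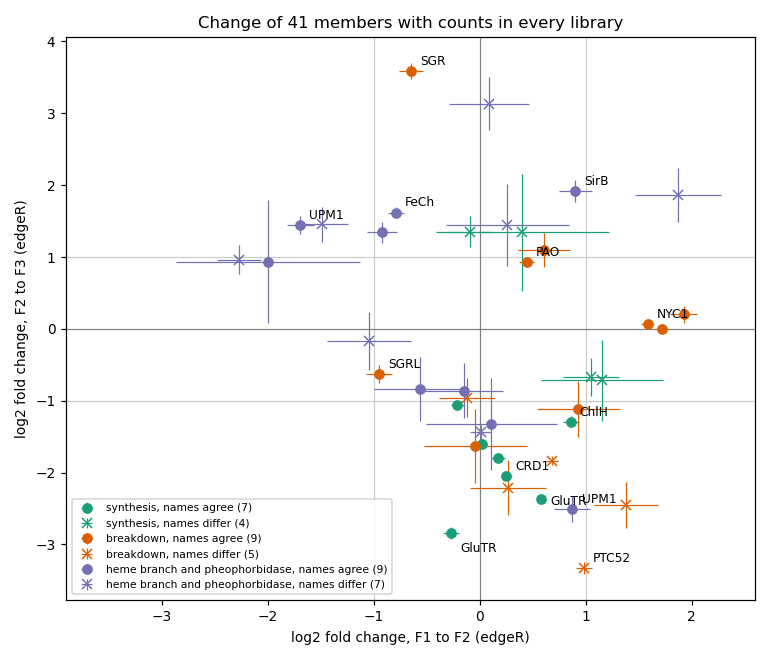
Log2 fold change from F1 to F2 (x axis) against that from F2 to F3 (y axis), with standard errors from edgeR, for the 41 clusters with counts in every library; the other 7 are left out. Colours give the class, circles agreeing and crosses differing names, and grey lines mark 2-fold. All 7 synthesis circles lie below -1 on the y axis, while breakdown circles spread from SGR at 3.59 to values below -1. Both axes use the F2 libraries, so no relation between them is read.

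The sums of the 2 sides of the pathway moved apart between F2 and F3. The 7 synthesis clusters with agreeing names summed to 1768 to 1973 FPKM at F1, 2333 to 2348 at F2 and 775 to 799.8 at F3. The 12 breakdown clusters with agreeing names summed to 109 to 111 FPKM at F1, 157 to 167 at F2 and 272 to 288 at F3. Neither sum overlapped between stages. Among the pathway clusters, which leave out pheophytinase, the stage with the highest breakdown sum depended on the PTC52 clusters. Over all 19 breakdown clusters the sum was 217 to 237 FPKM at F1, 358 to 377 at F2 and 313 to 327 at F3, so F2 was highest. The ratio of the synthesis sum to the breakdown sum within a library needs no scaling between libraries, and it was 17.1 ± 0.91 at F1, 14.5 ± 0.46 at F2 and 2.84 ± 0.13 at F3 (mean ± SD, n = 3). With all 12 synthesis and all 19 breakdown clusters it was 8.25 ± 0.088, 6.38 ± 0.17 and 2.52 ± 0.10. For clusters with agreeing names it ranged from 16.3 to 18.1 at F1, from 14.0 to 15.0 at F2 and from 2.69 to 2.92 at F3. The sums hold only pathway clusters in the table, and no test was made on them. They leave out the 2 pheophytinase matches, which lack the pathway entry. These summed to 96.9 to 101 FPKM at F1, 111 to 113 at F2 and 361 to 375 at F3. The F3 values exceed the sum of the 12 breakdown clusters, so the ratios would be lower with pheophytinase counted. F3 would then have the highest breakdown sum with or without PTC52.

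**Figure D5:**
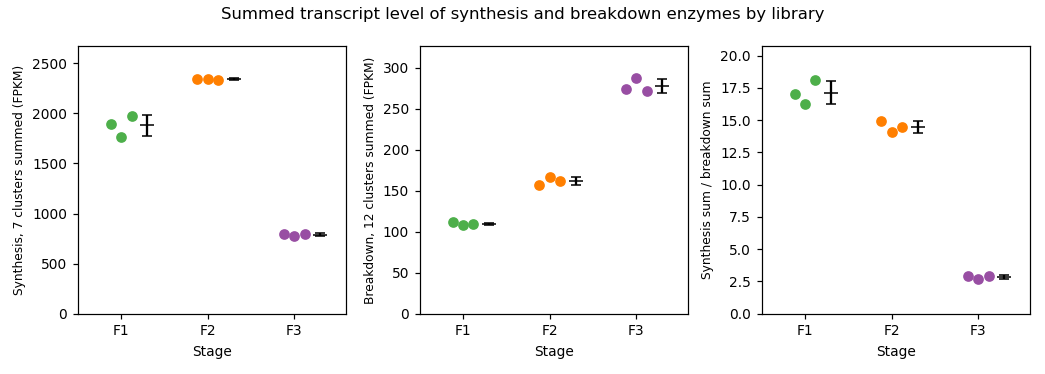
Summed FPKM of the 7 synthesis clusters (left) and the 12 breakdown clusters (middle) with agreeing names, and their ratio within each library (right), by stage. Points are libraries, and the black mark and bar are the mean and SD of 3. For these clusters synthesis is lowest and breakdown highest at F3, where the ratio lies between 2.69 and 2.92. Over all 19 breakdown clusters, not plotted, the sum is highest at F2. Pheophytinase, which lacks the pathway entry, is in neither sum.

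Other genes of the leaf moved at the same time. Of 40 antenna protein clusters, which bind the chlorophyll, 13 rose and 1 fell from F1 to F2 (edgeR, 22% and 18.8% over all clusters). From F2 to F3, 0 of the 40 rose and 39 fell (29.5% and 35.8%). Their sum was 36244 to 39129 FPKM at F1, 71176 to 74504 at F2 and 15539 to 16660 at F3, the same order of stages as ChlH, the main GluTR cluster and GUN4. Markers of dividing cells fell in 19 of 22 clusters from F1 to F2 (18.8% over all clusters) and summed to 33.3 to 35.9, 11.8 to 14.8 and 21.2 to 25.9 FPKM at F1, F2 and F3. Of these, the 7 clusters of mitotic cyclins and CDKB summed to 9.36 to 9.92, 1.28 to 1.65 and 0.78 to 1.2 FPKM, and the higher sum at F3 than at F2 came from the 15 replication clusters (10.5 to 13.4 at F2 and 20.0 to 25.1 at F3). From F2 to F3, 4 of the 22 rose and 4 fell. Epidermis markers (58 clusters) summed to 2201 to 2226, 618 to 624 and 275 to 284 FPKM, xylem markers (25 clusters) to 175 to 192, 78.4 to 86.5 and 66.8 to 73.8, and guard cell markers (3 clusters) to 28.7 to 33.3, 23.1 to 24.6 and 3.63 to 4.75. From F2 to F3, 6 of the 58 epidermis clusters rose and 28 fell (29.5% and 35.8% over all clusters). Among those that rose were 3 of the 4 WRK44 matches, which summed to 27.8 to 33.0 FPKM at F2 and 87.2 to 98.3 at F3. Of the 25 xylem clusters, 18 fell and 3 rose from F2 to F3, with a median log2 change of -4.75. The 3 that rose were matches to KNAT7, which summed to 7.9 to 9.28 FPKM at F2 and 36.8 to 39.9 at F3. The part of these cell types in the changes of the pathway was not tested.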

How the data were processed

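Leaves of 3 stages were measured by RNA-seq with 3 libraries per stage. The authors deposited raw counts per transcript cluster and library, whole numbers with no normalization. The authors also deposited FPKM, for which counts were divided by transcript length and scaled to library size. In the 44 pathway clusters with at least 100 counts in a library, the length behind the FPKM was 0.582 to 1.13 of the deposited length. How reads were assembled, aligned and counted is not given in these sources. The labels name the mouse builds GRCm38 and mm10 and kits other than those in the methods, and no genome was used. The table also holds the authors' own fold changes, p-values and calls, which were not used, except that every one of the 24385 clusters was found to be marked up or down at least once.

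Members were the clusters whose KEGG pathway entry contains ko00860. The members and all gene lists were chosen with earlier results of these data known. Counts of all clusters were fitted with edgeR 4.0.16 in R 4.3.3 (quasi-likelihood, TMM scaling, stage as the only factor over the 9 libraries, no filter). Calls needed a Benjamini-Hochberg adjusted p under 0.05 over the table and a fold change of 2 or more. Standard errors are the log2 fold change over the root of the F statistic and are approximate. Counts of each KEGG enzyme, and of each KEGG enzyme and Swiss-Prot match, were also summed and tested. The second sum was chosen after the table had been seen. Where a stage had no count, its level was set to 3 counts in each library, which gives a lower bound of the fold.

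Named clusters were the most abundant of each KEGG enzyme, up to 5 called rises and 5 falls of largest fold per comparison (a stage mean of 10 FPKM or more, no overlap), and the most abundant of each regulator pattern. Others, such as PAO, CLH2, SGRL, SGR Cluster-58465.0, PTC52 Cluster-58723.2, Cluster-58723.4 and Cluster-58723.7, SirB Cluster-55597.7, ChlH Cluster-9170.8, the pheophytinase matches, TIC55, Cluster-42731.1, Cluster-49610.0 and Cluster-55217.11, were named after their values had been seen. Patterns for FLU, GBP, LIL3, YCF54, BCM and GLK matched no cluster. Replicates of a stage differed by more than sampling noise (chi-square per degree of freedom 5.80 to 12.6), so none were merged. Alternatives used DESeq2 1.42.0 and limma 3.58.1. Python 3.11.15 with pandas 2.3.3, numpy 2.4.6 and matplotlib 3.10.9 did the rest.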

Additional observations from a re-analysis of the deposited data

How the results depend on the processing

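Of 158 changes of named clusters and enzyme totals, 148 kept direction and side of the threshold with DESeq2, 149 with RLE scaling, 145 with library sizes implied by FPKM, 142 and 145 with limma on log2(FPKM + 1) and log2(FPKM + 0.1), 155 with clusters of at least 1 FPKM and 149 with the 2 stages alone. Only the UPM1 total from F2 to F3 changed sign there, to 0.10 in both limma fits. GUN1 from F1 to F2 ranged from -0.45 to 0.70 when single libraries were left out.

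Rises from F1 to F2 (7) became 15 with no fold threshold and 2 with clusters of a number summed. Falls (4) became 8, 7, 10 and 2 with DESeq2, RLE scaling, no fold threshold and numbers summed. Synthesis rises (1) were 0 with DESeq2, RLE scaling, FPKM library sizes, both limma fits and numbers summed, 2 with the 2 stages alone and 4 with no fold threshold, and synthesis falls (0) were then 2. Breakdown rises (5) were 8 and 2 with no fold threshold and numbers summed, and breakdown falls (0) were 1 with DESeq2, RLE scaling or FPKM library sizes and 2 with no fold threshold. From F2 to F3, summing numbers gave 8 rises, 9 falls, 0 synthesis rises and 2 breakdown falls. From F1 to F3 it gave 7 rises, 11 falls, 0 synthesis rises, 5 breakdown rises and 3 breakdown falls. In that comparison limma on log2(FPKM + 1) gave 13 falls and 5 breakdown falls, and synthesis rises were 2 with limma on log2(FPKM + 0.1) or the 2 stages alone. With fewer rows after summing, these counts are smaller by construction. Enzyme totals called were 12 (F1 to F2) and 18 (F1 to F3) with no fold threshold, and of 26 totals by enzyme and Swiss-Prot match 19 (F2 to F3) and 18 (F1 to F3) were called.

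Leaving out 1 library gave 6 to 9 rises and 3 to 6 falls from F1 to F2, 12 to 15 and 17 to 19 from F2 to F3, and 12 to 14 and 18 to 22 from F1 to F3. For synthesis it gave 0 to 1 rises from F1 to F2 and 1 to 2 from F1 to F3. For breakdown it gave 5 to 7 rises and 0 to 1 falls from F1 to F2. Enzyme totals called from F1 to F2 were 2 to 4, with 2 without F2 replicate 2.

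Replicate numbers did not pair the libraries (r of deviations -0.019 to 0.034 for same numbers, -0.034 to 0.039 for others). With the replicate block, rises were 8, 13 and 13 and falls 3, 19 and 22 in the 3 comparisons, and none of the 158 changes switched its call. The causes were not tested. Clusters below about 2 FPKM rest on few counts and are least certain.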
